A study of Mus musculus with 6 samples.

Results

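Neuromesodermal progenitors (NMPs) exposed for 2 h to 1 µM retinoic acid (RA) were compared directly with NMPs exposed for 2 h to 25 nM RA, to ask which RA-responsive genes differed between the doses and which were near equal. The comparison used 4 of the 6 samples of the study, 2 at 1 µM and 2 at 25 nM, chosen by the dose in their labels. The other 2 samples, which received the DMSO vehicle for 2 h, were outside the contrast and served to define which genes respond to RA and to estimate the spread between duplicates. The NMPs of all 3 groups had been derived from mouse embryonic stem cells by 2 days of bFGF and 1 day of bFGF with the WNT agonist CHIR99021, and the 2 h treatment was in N2B27 medium without these factors. The labels give the embryonic stem cells as strain 129 R1 and the methods as C57BL/6. Duplicates were separate culture dishes, described as technical replicates in the methods, so all errors and p-values below measure the spread between dishes of cells derived in culture and not between independent derivations.

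RA enters the nucleus and binds RA receptors (RARs), which sit with retinoid X receptors on DNA at RA response elements, usually direct repeats of a short unit. Binding of RA exchanges corepressors for coactivators, so that many direct targets change transcription within a few hours. In the caudal embryo, RA made by the somites acts on the progenitors of spinal cord and presomitic mesoderm, where it limits caudal FGF signalling and raises anterior *Hox* genes. Several targets close a feedback loop, because they encode enzymes that degrade RA or retinaldehyde, or the receptors themselves.

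A direct repeat with a spacer of 5 bases (DR5) is the classic response element of such targets, and it was found in the promoters of a pair of genes whose levels differed between the doses, *Cyp26a1* and *Rarb*. Promoters were RefSeq windows of 300 bases on GRCm38.p6 (mm10), from 250 bases before an annotated start to 50 bases from it. The search, on both strands, was for 2 copies of the unit AGGTCA in the same direction, separated by 5, 2 or 1 bases, in which each copy could have G in place of its first base, T in place of the third base, or both. The windows are shown 5′ to 3′ on the strand of the gene with the repeat in capitals.

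Cyp26a1: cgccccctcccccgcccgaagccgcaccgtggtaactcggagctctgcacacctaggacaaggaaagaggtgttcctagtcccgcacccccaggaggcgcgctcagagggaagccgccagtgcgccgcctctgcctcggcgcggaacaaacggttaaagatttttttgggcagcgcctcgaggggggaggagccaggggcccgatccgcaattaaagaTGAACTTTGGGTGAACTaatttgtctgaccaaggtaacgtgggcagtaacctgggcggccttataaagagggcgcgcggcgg

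Rarb: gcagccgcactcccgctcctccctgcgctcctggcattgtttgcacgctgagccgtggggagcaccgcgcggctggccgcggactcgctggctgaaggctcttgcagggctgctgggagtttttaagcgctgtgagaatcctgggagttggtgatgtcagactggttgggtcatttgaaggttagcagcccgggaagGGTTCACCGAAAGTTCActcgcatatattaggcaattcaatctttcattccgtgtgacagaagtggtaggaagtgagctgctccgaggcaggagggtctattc

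The *Cyp26a1* window is chr19:37697558-37697857 on the plus strand, and its repeat reads on the opposite strand, 32 to 16 bases before the start. The *Rarb* window is chr14:16575427-16575726 on the minus strand, and its repeat reads on the strand of the gene, 53 to 37 bases before the start. This start, at position 16575476, lies inside the *Rarb* gene and belongs to 2 of its 4 transcripts in the files, to which at least 99.9984% of the estimated *Rarb* counts of each RA-treated sample were assigned. Windows were found for 12 of the 18 dose-graded raised genes described below, and 2 held a DR5. None of the 15 near-equal and none of the 25 undecided raised genes with a window held one. Over all 27025 genes with a window the share with a DR5 was 0.115%, and over all 32851 RefSeq windows it was 0.0974%. Direct repeats with a spacer of 2 or 1 bases were in no window of a responding gene, against 0.311% and 0.263% of all genes with a window. A match describes letters in this window only, and response elements outside it were not searched.

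Expression was measured by RNA-seq of total RNA without ribosomal RNA, and each transcript had an estimated count and an RPKM value (reads relative to the length of the transcript and the depth of the library). A sample held between 31753556 and 42029348 estimated counts. Counts and RPKM of transcripts of the same gene were added, and 15143 of 20631 genes passed edgeR's filter on low counts. Differences between the doses are given as log2 of 1 µM over 25 nM RA from edgeR's quasi-likelihood test, with the standard error (SE) or 95% interval of the fit, and a gene was called at a Benjamini-Hochberg adjusted p under 0.1 over all genes tested. In total 336 genes (2.22%) were called between the doses, of which 77 (0.508%) were higher and 259 (1.71%) were lower at 1 µM RA. Total RNA of a dish cannot tell fewer cells of a type apart from less RNA per cell.

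Genes responding to RA were taken from the mean of both doses against DMSO, which weighs the doses equally. A raised gene had an adjusted p under 0.1, changed by more than 1 on the log2 scale and averaged over 1 RPKM across the 4 samples with RA. A lowered gene had the same adjusted p, changed by less than -0.6 and averaged over 7 RPKM with DMSO. By this rule 76 genes (0.502%) were raised and 14 (0.0925%) were lowered, and these 90 genes were then classed by the direct contrast of the doses. Graded genes were called and lay further from DMSO at 1 µM RA. Near-equal genes were not called, and the 95% interval of their log2 difference lay within -0.3 to 0.3, a fold change of at most 1.23. Genes that were neither were undecided. The interval of a graded gene could also lie within -0.3 to 0.3, as for *Chsy1*, *Fst* and *Sgk1*. Graded and near-equal genes therefore overlapped in size: *Sgk1* was graded and *Evx1* was near equal, both at -0.16.

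Of the 76 raised genes, 18 (23.7%) were graded, 22 (28.9%) were near equal and 36 (47.4%) were undecided. Of the 14 lowered genes, 6 were graded, 4 were near equal and 4 were undecided. No responding gene was called nearer to DMSO at 1 µM RA than at 25 nM RA by edgeR's quasi-likelihood test, by its likelihood ratio test or by DESeq2, and none was at an unadjusted p under 0.05. Counting direction alone, 69 of 76 raised genes and 14 of 14 lowered genes lay further from DMSO at 1 µM RA, with median log2 differences of 0.19 and -0.19, while the median over all genes tested was 0.000335. The change in RPKM reached at 25 nM RA was a median of 80.1% of that at 1 µM RA in raised genes and 80.6% in lowered genes. It was 66.3% in graded raised genes, ranging from 51.1% to 78.6%, and 94.1% in near-equal raised genes, ranging from 82.0% to 113%.

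**Figure D1:**
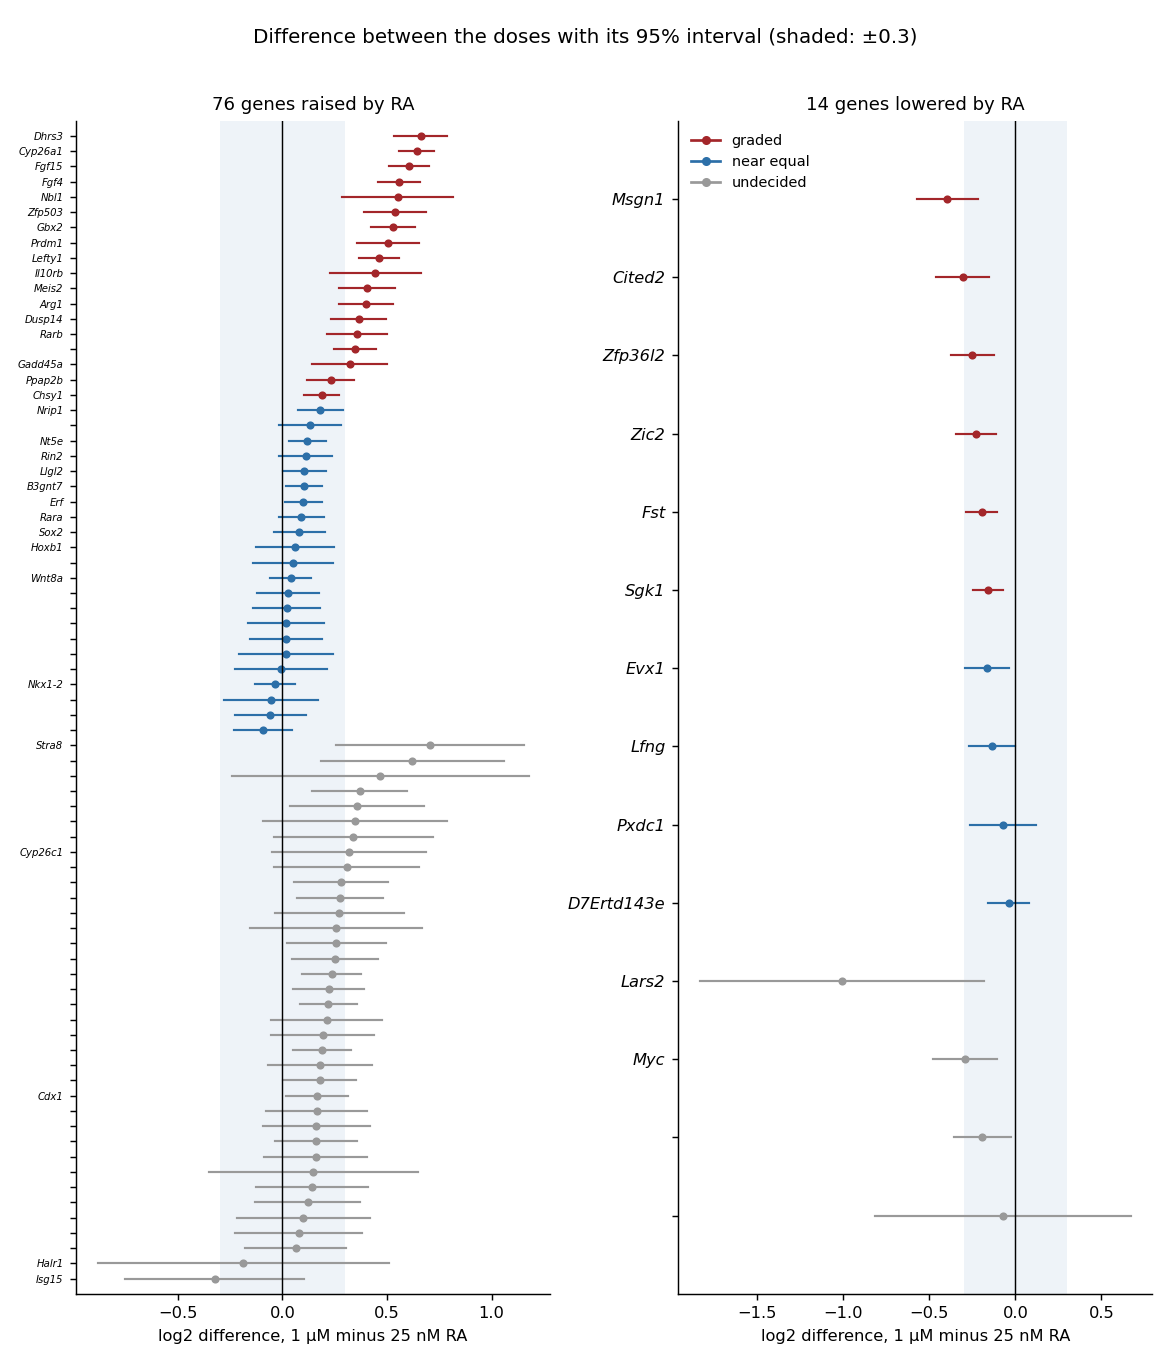
Log2 difference of 1 µM minus 25 nM RA on the x axis for each of the 76 raised (left) and 14 lowered (right) genes, named where the text describes them, with points for the estimate, lines for its 95% interval and a shaded band from -0.3 to 0.3. The 18 graded raised genes lie between 0.19 and 0.66, the 22 near-equal raised genes between -0.09 and 0.18, and the undecided genes have wider intervals.

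Among genes of retinoid metabolism, *Cyp26a1* and *Dhrs3* were graded. *Cyp26a1* (chromosome 19 from 37697808 to 37701536), the main RA-degrading hydroxylase of the early embryo, had 178 and 178 RPKM at 25 nM RA and 283 and 272 RPKM at 1 µM RA, against 52.6 and 52.3 RPKM with DMSO. The 3 groups did not overlap, and the log2 difference between the doses was 0.64 (SE 0.0398, 1.56-fold, adjusted p = 2.32e-07), the smallest p of all genes tested. *Dhrs3* (chromosome 4 from 144892827 to 144927645), which reduces retinaldehyde to retinol and so lowers RA synthesis, had 13.6 and 13.3 RPKM at 25 nM RA and 20.8 and 20.2 RPKM at 1 µM RA. It was below 0.6 RPKM in both DMSO samples, and the doses differed by 0.66 on the log2 scale (SE 0.0598, adjusted p = 1.69e-05). At 25 nM RA *Cyp26a1* had reached 55.6% and *Dhrs3* 64.7% of its change at 1 µM RA.

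Over all genes tested 0.508% were called higher at 1 µM RA and 1.71% lower. Of 17 genes of retinoid metabolism and transport tested, 3 were called higher at 1 µM RA and none was called lower, with a median log2 difference of 0.08. The third was *Cyp26b1*, a second RA hydroxylase, whose mean RPKM was only 0.0511 ± 0.00212 at 25 nM RA and 0.129 ± 0.0226 at 1 µM RA (SD, n = 2; adjusted p = 0.0867). *Cyp26c1*, the remaining hydroxylase of the family, had 1.25 ± 0.0240 and 1.56 ± 0.225 RPKM (adjusted p = 0.441). *Crabp2*, which carries RA to the nucleus, had 27.5 and 28.3 RPKM at 25 nM RA and 26.7 and 28.3 RPKM at 1 µM RA, so that the doses overlapped (log2 difference -0.03, SE 0.0556, adjusted p = 0.880). *Rdh10* and *Aldh1a2*, which act in RA synthesis, both had log2 differences of -0.02 and were not called.

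The receptors differed among themselves. *Rarb* (chromosome 14 from 16430840 to 17082331), a receptor that is itself an RA target, had 5.59 and 4.97 RPKM at 25 nM RA and 6.65 and 6.89 RPKM at 1 µM RA, against 0.260 and 0.215 RPKM with DMSO. The doses did not overlap (log2 difference 0.36, SE 0.0679, adjusted p = 0.0148). *Rara* (chromosome 11 from 98937696 to 98974942) had 10.2 and 10.1 RPKM at 25 nM RA and 10.6 and 11.01 RPKM at 1 µM RA, against 3.55 and 3.29 RPKM with DMSO. It was near equal, with a log2 difference of 0.09 and a 95% interval from -0.02 to 0.20. *Nrip1*, a corepressor recruited by RA-bound receptors, was near equal at 0.18 with an interval from 0.07 to 0.29, which lies above 0. *Rarb* was the 1 gene called of 13 receptors and cofactors tested (median log2 difference -0.07), against 2.22% of all genes. At an unadjusted p under 0.05 in the quasi-likelihood test there were 2 higher and 4 lower. The likelihood ratio test called 2 higher and 2 lower, and DESeq2 1 higher and none lower. With the length and GC offset described below, 3 were called higher and none lower. *Rarg*, *Rxra*, *Rxrb* and *Rxrg* had differences between -0.27 and -0.05. The difference between *Rarb* and *Rara* was itself not tested.

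The graded raised genes included *Gbx2*, *Meis2*, *Zfp503* and *Prdm1*, which encode transcription factors, while others such as *Sox2*, *Nkx1-2* and *Erf* were near equal. *Gbx2*, a homeobox gene of the anterior hindbrain, rose from 15.8 and 15.7 RPKM to 23.3 and 22.2 RPKM (0.53, adjusted p = 2.50e-05). *Meis2*, a TALE homeobox cofactor of Hox proteins, rose from 4.74 and 5.17 RPKM to 6.85 and 6.36 RPKM (0.40, adjusted p = 0.00390). The zinc finger genes *Zfp503* and *Prdm1* were graded at 0.54 and 0.51. Each of these 4 genes had both samples at 1 µM RA above both samples at 25 nM RA, as had every gene called higher.

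Several other homeobox genes were not called. *Hoxb1*, an anterior *Hox* gene, had 9.16 and 8.14 RPKM at 25 nM RA and 9.03 and 9.01 RPKM at 1 µM RA, with an interval of the log2 difference from -0.12 to 0.25. Of the 37 *Hox* genes in the files only 10 had counts high enough for a test, with a median difference of 0.10. Of these 10, 1 was called higher and none lower by the quasi-likelihood test, the likelihood ratio test and DESeq2 alike. Over all genes tested 0.508% were called higher and 1.71% lower by the quasi-likelihood test. *Cdx1*, a caudal gene that sets *Hox* expression, had 23.7 and 19.9 RPKM at 25 nM RA and 23.2 and 25.7 RPKM at 1 µM RA, so that the doses overlapped, and it was undecided (interval from 0.02 to 0.31). Of 16 genes tested in a list of TALE and caudal homeobox genes that also held *Gbx2*, *Gbx2* and *Meis2* were called higher. None was called lower, and the median difference was -0.06. With the length and GC offset described below, 3 were called higher and 1 lower.

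Secreted ligands of the FGF and Nodal pathways were among the genes with the smallest p. *Fgf15* (chromosome 7 from 144896532 to 144900951) had 22.1 and 21.7 RPKM at 25 nM RA and 33.4 and 33.3 RPKM at 1 µM RA, against 7.76 and 7.78 RPKM with DMSO, and the duplicates of each group lay close together (log2 difference 0.60, SE 0.0455, adjusted p = 2.20e-06). *Fgf4*, its neighbour on chromosome 7 (from 144861386 to 144865243), had 11.99 and 12.3 RPKM at 25 nM RA and 17.8 and 18.0 RPKM at 1 µM RA (0.56, SE 0.0476, adjusted p = 1.03e-05). *Fgf3* was also called, with 15.0 and 15.5 RPKM at 25 nM RA and 18.2 and 18.3 RPKM at 1 µM RA (0.26, adjusted p = 0.0410), although its change from DMSO was too small for the raised list. The caudal ligand *Fgf8*, which RA is known to repress in the embryo, had 51.6 and 49.9 RPKM at 25 nM RA and 51.2 and 46.7 RPKM at 1 µM RA, and the doses overlapped (-0.05, SE 0.0511, adjusted p = 0.738). Over the 16 FGF and Wnt ligands tested, 3 were called higher, none was called lower and the median was -0.02. Over all genes tested 0.508% were called higher and 1.71% lower.

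*Lefty1*, an extracellular inhibitor of Nodal, had 59.9 and 55.8 RPKM at 25 nM RA and 78.5 and 80.9 RPKM at 1 µM RA, against 20.9 and 22.004 RPKM with DMSO (0.46, SE 0.0448, adjusted p = 3.24e-05). *Lefty2*, the adjacent inhibitor of the same family, had 40.8 and 43.5 RPKM at 25 nM RA and 51.6 and 54.4 RPKM at 1 µM RA (0.32, adjusted p = 0.00364). These 2 were the calls among 12 Nodal pathway genes tested, with a median of 0.11, against 0.508% called higher over all genes. *Nodal* itself (0.10, SE 0.0474) was not called. Other graded raised genes were *Arg1*, which cleaves arginine, *Dusp14*, a MAP kinase phosphatase, *Chsy1*, a chondroitin synthase, *Ppap2b*, a lipid phosphatase, *Il10rb*, a cytokine receptor chain, *Gadd45a*, a stress-induced gene, and *Nbl1*, a BMP antagonist. Their log2 differences ran from 0.19 for *Chsy1* to 0.55 for *Nbl1*.

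**Figure D2:**
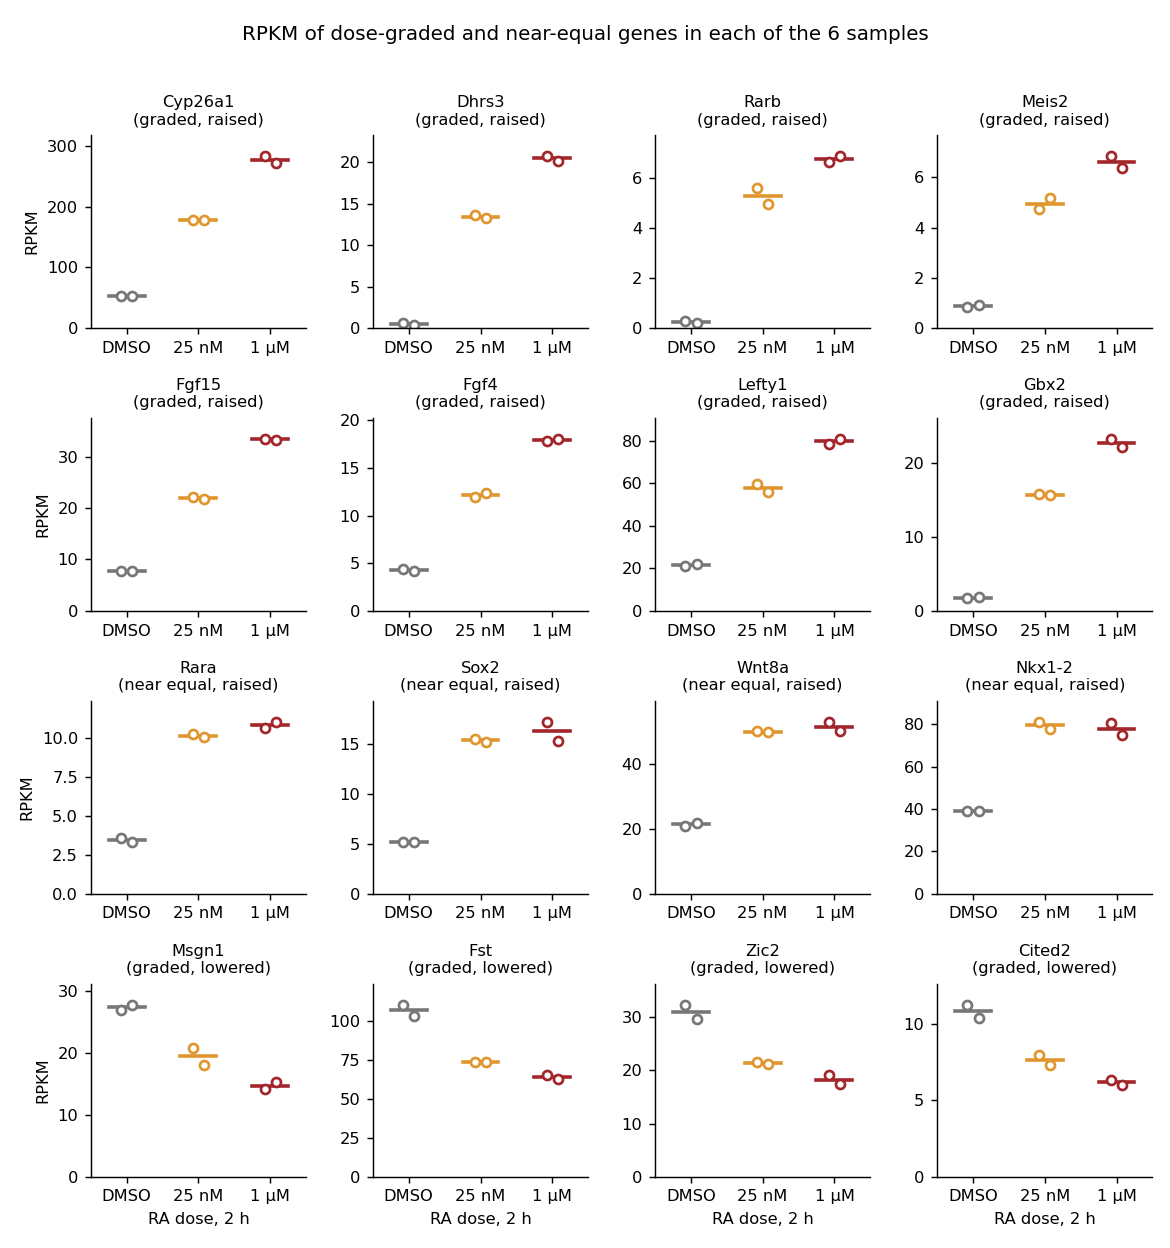
RPKM (y axis, from 0) at 0 RA (DMSO), 25 nM RA and 1 µM RA for 16 genes, with circles for the 2 samples of each group and bars for their mean. In the graded rows both samples at 1 µM RA lie beyond both at 25 nM RA, while those of *Sox2*, *Wnt8a* and *Nkx1-2* overlap.

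The 6 graded lowered genes had smaller differences, from -0.40 to -0.16. *Msgn1*, a regulator of presomitic mesoderm, had 20.9 and 18.1 RPKM at 25 nM RA and 14.1 and 15.4 RPKM at 1 µM RA, against 27.0 and 27.8 RPKM with DMSO (log2 difference -0.40, SE 0.0839, adjusted p = 0.0265). *Fst*, which encodes the activin and BMP antagonist follistatin, had 73.5 and 73.5 RPKM at 25 nM RA and 65.6 and 63.0 RPKM at 1 µM RA (-0.20, adjusted p = 0.0325). *Cited2* (-0.31), a transcriptional coregulator, *Zfp36l2* (-0.25), which destabilizes mRNA, *Zic2* (-0.23), a zinc finger factor of neural progenitors, and the kinase gene *Sgk1* (-0.16) were the others. In all 6 the samples at 1 µM RA lay below those at 25 nM RA without overlap, as in every gene called lower.

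The graded raised genes were stable and the graded lowered genes less so. When each of the 6 samples was left out in turn, between 12 and 17 of the 18 raised genes were still called, and 12 were called each time, among them *Cyp26a1*, *Dhrs3*, *Gbx2*, *Meis2*, *Fgf15*, *Fgf4* and *Lefty1*. *Rarb* was lost without replicate 2 of 25 nM RA (log2 difference 0.28, adjusted p = 0.194). Of the 6 lowered genes none was still called without replicate 1 of 25 nM RA and 2 without replicate 2, although the direction was kept in all 6 genes. DESeq2 called 14 of the 18 raised and 3 of the 6 lowered genes.

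The near-equal raised genes with the smallest p of response were *B3gnt7*, *Nt5e*, *Erf*, *Rara*, *Llgl2*, *Nrip1*, *Wnt8a*, *Sox2*, *Nkx1-2* and *Rin2*. *Sox2*, which marks NMPs and neural progenitors, had 15.5 and 15.2 RPKM at 25 nM RA and 17.3 and 15.3 RPKM at 1 µM RA, against 5.21 and 5.20 RPKM with DMSO (log2 difference 0.08, interval from -0.04 to 0.20). *Nkx1-2*, a homeobox gene of the caudal progenitors, had 81.2 and 77.9 RPKM at 25 nM RA and 80.5 and 74.8 RPKM at 1 µM RA, against 39.3 and 38.9 RPKM with DMSO (-0.04, interval from -0.13 to 0.06). *Wnt8a*, a caudal Wnt ligand, had 50.3 and 49.7 RPKM at 25 nM RA and 53.0 and 50.1 RPKM at 1 µM RA (0.04, interval from -0.06 to 0.14). Thus for these 3 genes a difference above 0.20 on the log2 scale lies outside the interval.

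For other genes of this class the interval excluded 0 even though the adjusted p missed 0.1. This was the case for 5 of the 22 raised near-equal genes, *Nrip1*, *Nt5e*, *B3gnt7*, *Erf* and *Llgl2*. *Nt5e*, which encodes the ectonucleotidase CD73, had 40.4 and 40.3 RPKM at 25 nM RA and 44.7 and 43.2 RPKM at 1 µM RA (0.12, interval from 0.03 to 0.21, adjusted p = 0.206). *Erf*, a repressor downstream of ERK, had 37.5 and 34.8 RPKM at 25 nM RA and 38.6 and 39.0 RPKM at 1 µM RA (0.10, interval from 0.01 to 0.19, adjusted p = 0.316). Near equal thus means a small difference and not its absence. The 4 lowered near-equal genes were *Evx1* (-0.16) and *Lfng* (-0.14), which act in the primitive streak and in segmentation, *Pxdc1* (-0.07) and *D7Ertd143e* (-0.04).

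The 40 undecided genes had fewer reads. The median estimated count over the RA-treated samples was 178 in the 36 raised undecided genes, against 1186 in graded and 890 in near-equal raised genes, and their intervals had a median width of 0.51 against 0.25 and 0.29. Direction was the same as in the graded genes for 34 of the 36, and 14 had an interval that excluded 0. *Stra8*, a germ cell gene that RA is known to activate, was listed at 0 and 0.0325 RPKM with DMSO, and had 0.750 and 0.767 RPKM at 25 nM RA and 1.17 and 1.31 RPKM at 1 µM RA, without overlap of the doses (log2 difference 0.70, interval from 0.26 to 1.15, adjusted p = 0.132, and 0.0197 by edgeR's likelihood ratio test). *Myc*, a lowered undecided gene, had 8.23 and 7.18 RPKM at 25 nM RA and 6.79 and 5.75 RPKM at 1 µM RA (-0.29, adjusted p = 0.132). *Lars2*, at 75.9 and 26.6 RPKM with 25 nM RA, varied too much between duplicates for a class, and *Isg15* (-0.32) and *Halr1* (-0.19) were the only raised undecided genes with a lower estimate at 1 µM RA.

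Length and GC content of the transcripts differed between the classes. Graded raised genes had a median transcript length of 1988 bases and a GC content of 50.8%, and near-equal raised genes had 3350 bases and 55.7%. Over all genes the difference between the doses fell with both properties (Spearman's rho across genes -0.113 with length and -0.286 with GC content), so the classes were refitted with a per-sample loess offset in length and GC content, an alternative added after the data were seen. All 18 graded raised genes were still called, and their median log2 difference was 0.47 with the offset and 0.45 without it. Of the 6 graded lowered genes 4 were still called. The near-equal raised genes moved from a median of 0.05 to 0.11, and 5 of the 22 became called as higher at 1 µM RA: *B3gnt7* (0.16), *Erf* (0.21), *Rara* (0.19), *Llgl2* (0.22) and *Nrip1* (0.22). *Cdx1* was also called then (0.25, adjusted p = 0.0410). In that fit 88 genes were responders, of which 33 were graded and 20 were near equal. *Nt5e*, *Wnt8a*, *Sox2*, *Nkx1-2*, *Rin2* and *Hoxb1* were called in neither fit.

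Most genes called between the doses were not among the 90 responders: 59 of the 77 higher genes and 253 of the 259 lower genes. The 59 higher genes differed by a median of 1.17-fold. Of these *Pdgfra*, a growth factor receptor of early mesoderm, had the smallest p, with 11.8 and 11.8 RPKM at 25 nM RA and 15.4 and 15.7 RPKM at 1 µM RA (log2 difference 0.40, SE 0.0424, adjusted p = 0.000108). *Dact1*, a modulator of Wnt signalling, had 4.95 and 5.26 RPKM and 6.76 and 6.44 RPKM (0.36, adjusted p = 0.0126). *Mycn* (0.18), a proliferation factor, *Foxc1* (0.33), a forkhead gene of mesoderm, *Dusp9* (0.23), a phosphatase of ERK, and *Flrt3* (0.22), a membrane protein of FGF signalling, were called as well and are named after their values were seen. With the length and GC offset 47 of the 59 were kept.

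**Figure D3:**
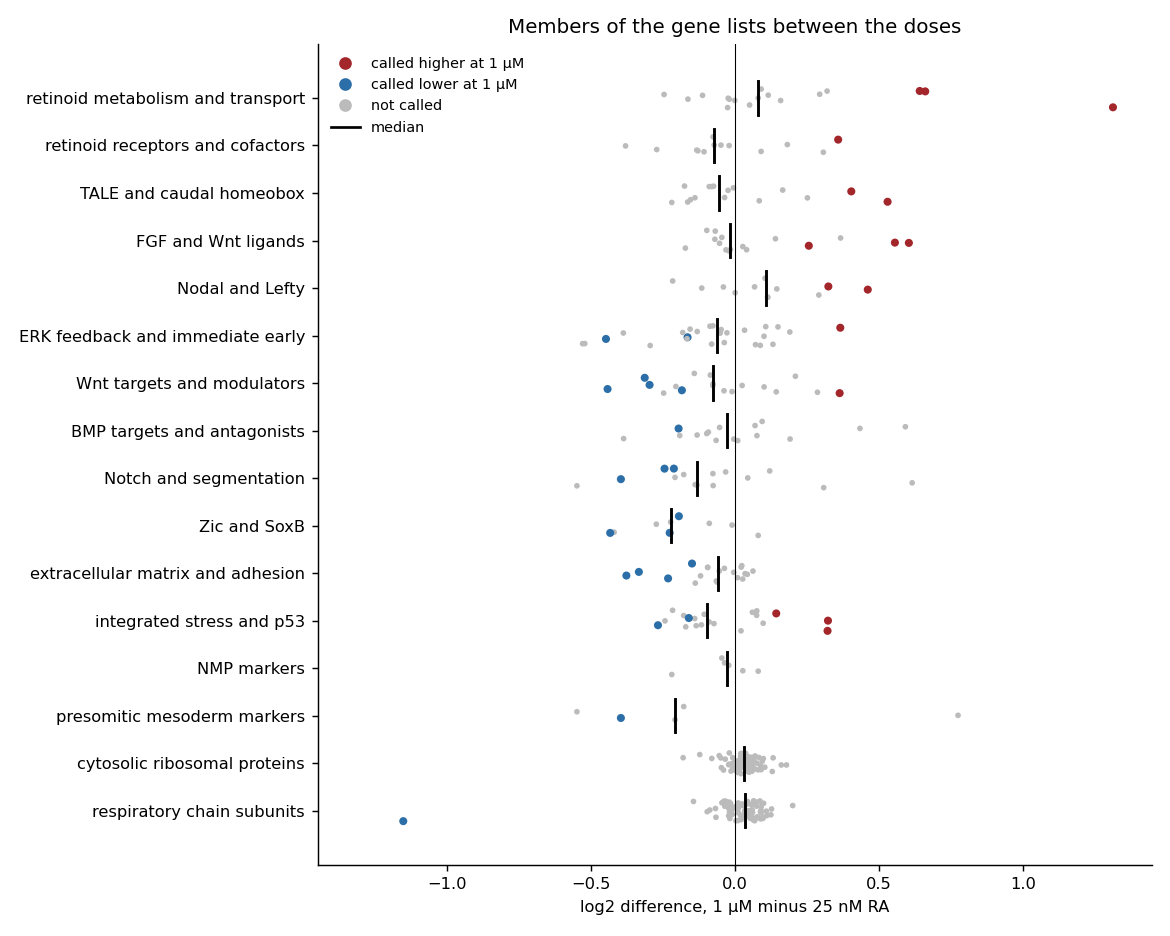
Log2 difference of 1 µM minus 25 nM RA (x axis) for the tested members of 16 gene lists (rows), coloured by call, with black bars at the list medians. Calls of the retinoid, homeobox, FGF and Nodal lists lie to the right, those of the Notch, Zic and matrix lists to the left, and the ribosomal and respiratory lists are narrow around 0.03 apart from *Ndufs5* at -1.15.

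Calls in lists of other pathways are to be read beside those over all genes tested, of which 0.508% were higher and 1.71% were lower at 1 µM RA. Of 18 Wnt targets and modulators tested, *Lef1* (-0.30), a nuclear effector of Wnt, *Sp5* (-0.31), *Dkk1* (-0.44) and *Axin2* (-0.18) were called lower and *Dact1* was called higher (median -0.08). *Lef1* had 12.9 and 13.6 RPKM at 25 nM RA and 11.2 and 11.3 RPKM at 1 µM RA, and it and *Dkk1* were kept with the length and GC offset while *Sp5* and *Axin2* were not. Among 9 Zic and SoxB genes tested, 3 were called lower, among them *Zic2* and *Zic5*. The latter had 5.64 and 5.72 RPKM at 25 nM RA and 3.98 and 4.45 RPKM at 1 µM RA (-0.43, adjusted p = 0.00816) and was kept with the offset, while *Zic2* was not. The median of that list was -0.22, and with the offset 2 of its genes were called lower. Of 15 Notch and segmentation genes *Msgn1*, *Notch1* and *Notch2* were called lower (median -0.13), and with the offset *Msgn1* was kept.

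Of 20 matrix and adhesion genes *Fn1*, *Hspg2*, *Lama5* and *Lamc1* were called lower (median -0.06), and with the offset *Fn1* was kept and *Col4a1* was called higher (0.16). Of 26 ERK feedback and immediate early genes *Dusp14* was called higher and *Arc* and *Dusp4* were called lower (median -0.06). Of 20 stress and p53 genes 3 were called higher (*Atf3*, *Gadd45a* and *Hspa5*) and 2 lower (*Cdkn1a* and *Sgk1*), with a median of -0.10. *Fst* was the 1 call among 16 BMP targets and antagonists (median -0.03). Among 83 ribosomal protein genes none was called by edgeR's quasi-likelihood test, its likelihood ratio test or DESeq2, and at an unadjusted p under 0.05 there were 5 higher and 1 lower (median 0.03), and among 80 respiratory chain genes *Ndufs5* was called. Of 60 replication-dependent histone genes 3 were called higher and 2 lower, and of 60 small nucleolar and Cajal RNAs 1 was called higher. Reads of histone and small RNA genes can be shared between near-identical copies, so these calls are uncertain.

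Few markers of the cell types that the cultures could hold were called between the doses. Over all genes tested 2.22% were called, so the absence of a call in lists this short says little. Of 6 NMP markers none was called by any of these tools (1 lower at an unadjusted p under 0.05), and *T* had 378 and 372 RPKM at 25 nM RA and 374 and 367 RPKM at 1 µM RA. The summed RPKM of 5 presomitic mesoderm markers was 27.5 to 30.0 at 25 nM RA and 22.1 to 24.1 at 1 µM RA. Most of this sum was *Msgn1*, which was called lower, at 18.1 to 20.9 and 14.1 to 15.4 RPKM. At an unadjusted p under 0.05 in the quasi-likelihood test, 2 of the 5 were lower and 1 was higher. The summed RPKM of 5 endoderm markers was 29.0 to 29.3 at 25 nM RA and 27.0 to 28.3 at 1 µM RA. *Sox17*, which defines endoderm, was called lower at 4.37 and 4.64 RPKM against 3.53 and 3.34 RPKM (-0.40, adjusted p = 0.0101). It was not called with the length and GC offset (-0.25, adjusted p = 0.191). No gene was called by the quasi-likelihood test or DESeq2 among 3 neural, 5 pluripotent or 5 feeder fibroblast markers tested, with 1, 1 and 2 lower at an unadjusted p under 0.05, and 1 of the feeder markers was called lower by the likelihood ratio test. The part of these cell types in the dose differences was not tested.

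The larger set, of genes lower at 1 µM RA, was one of long transcripts. Its median length was 5094 bases and its GC content 55.6%, against 2596 bases and 49.97% in genes called higher and 2795 bases and 50.5% in genes not called. The 10 with the smallest p among those above 1 RPKM were *Prrc2a*, *Srcap*, *Prrc2b*, *Cherp*, *Crebbp*, *Bahcc1*, *Trrap*, *Fn1*, *Mir6236* and *Dot1l*. *Srcap*, a chromatin remodeller, had 3.96 and 3.92 RPKM at 25 nM RA and 2.90 and 2.99 RPKM at 1 µM RA (log2 difference -0.42, SE 0.0532, adjusted p = 0.000787). *Crebbp*, an acetyltransferase that is also a coactivator of RARs, had 6.47 and 6.62 RPKM at 25 nM RA and 5.12 and 5.22 RPKM at 1 µM RA (-0.34, adjusted p = 0.00138). *Fn1*, encoding fibronectin, had 39.2 and 42.8 RPKM at 25 nM RA and 32.1 and 33.1 RPKM at 1 µM RA (-0.33, adjusted p = 0.00256). *Mir6236* (-1.10), a microRNA precursor of 123 bases, had 91.9 and 135 RPKM at 25 nM RA and 53.0 and 54.6 RPKM at 1 µM RA, and it is short and variable between duplicates.

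Genes were divided into 5 bins of near-equal size by length or by GC content. The share of genes called lower was 0.495% in the bin of the shortest transcripts and 4.89% in the bin of the longest. It was 0.201% in the bin of lowest GC content and 3.95% in that of the highest. The share called higher stayed between 0.429% and 0.727% across bins of length. With the offset in length and GC content, 119 genes (0.786%) were higher and 103 (0.680%) were lower, so that the excess of lower genes was not seen, and 94 of the 259 lower genes and 65 of the 77 higher genes were kept. The 10 lower genes named above were kept, with log2 differences of *Srcap*, *Crebbp* and *Fn1* at -0.29, -0.27 and -0.23.

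Trends of the same kind were present between duplicates. Spearman's rho with GC content was 0.313 for replicate 1 minus 2 of 25 nM RA, -0.245 for 1 µM RA and -0.149 for DMSO. Between single samples of the doses it ran from -0.432 (replicate 1 of each dose) to -0.00461 (replicate 2 of each dose). With length it was -0.0976, 0.0779 and 0.0750 between duplicates, and from -0.0229 to -0.186 between single samples of the doses. Both trends were therefore negative in all 4 pairings of single samples. Each was weak in 1 of them, at -0.0229 with length and -0.00461 with GC content. The 4 pairings share samples and are not independent. These correlations are across genes, which are not independent replicates. Whether library preparation or RNA quality contributed was not tested.

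**Figure D4:**
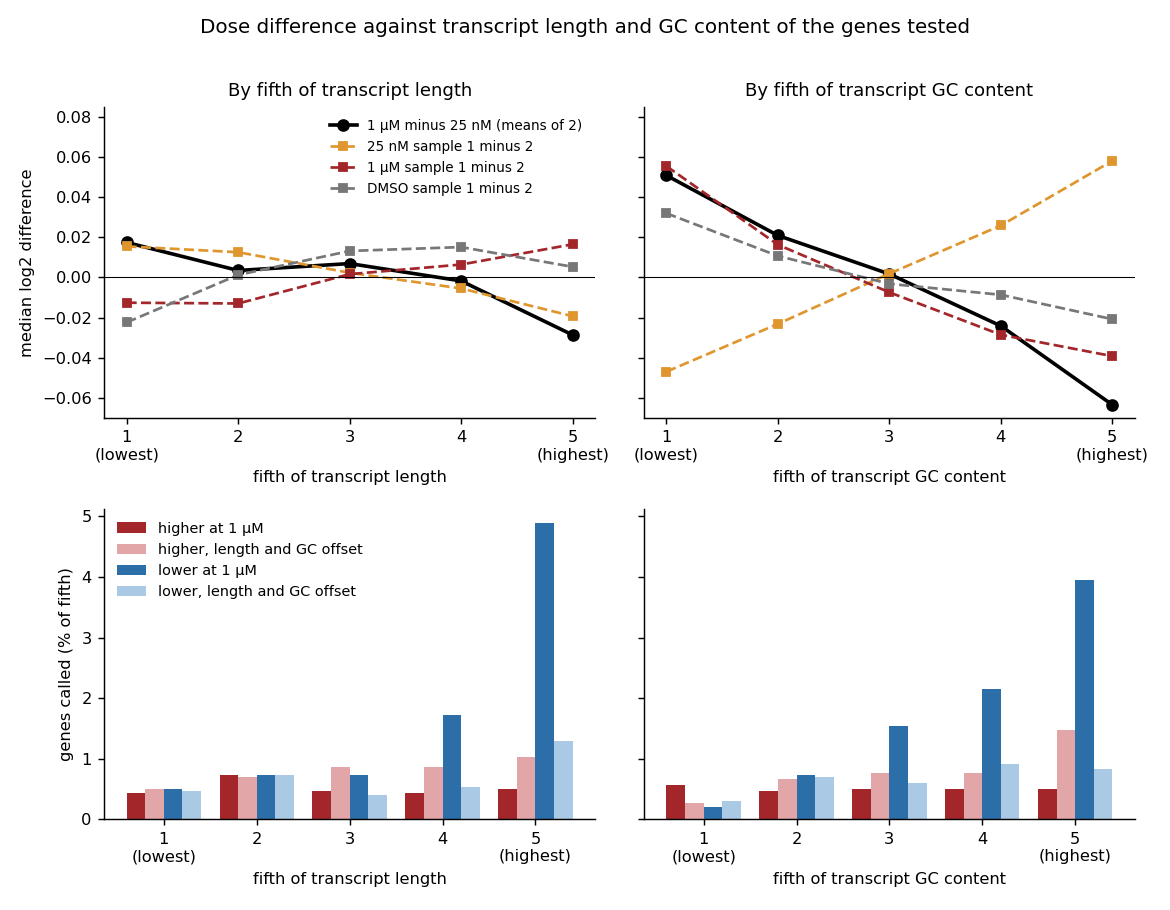
Upper panels, median log2 difference (y axis) in 5 bins of transcript length or GC content (x axis) for the doses (black, means of 2 samples) and for duplicates of each group (dashed). Lower panels, percentage of genes in each bin called higher (red) or lower (blue) at 1 µM RA without (dark) and with (pale) the length and GC offset: lower calls reach 4.89% in the bin of longest transcripts without it.

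Because the number of samples is small, RPKM values of the doses did not overlap in many genes that were not called. Both samples at 1 µM RA lay above both at 25 nM RA in 3440 genes (22.7%) and below them in 3155 genes (20.8%). All 77 genes called higher and all 259 called lower were among these. The absence of overlap in the 18 graded raised and 6 graded lowered genes therefore adds no support beyond their calls. Among raised genes, 9 of the 22 near-equal and 27 of the 36 undecided also had both samples at 1 µM RA above both at 25 nM RA.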

How the data were processed

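The authors depleted total RNA of ribosomal RNA, sequenced single-end reads of stranded libraries, aligned them to mm10 with TopHat2 2.0.13 and Bowtie2 2.2.5.0 and quantified transcripts in Partek 6.6 by expectation-maximization (tools per the labels). They deposited estimated counts, which are not normalized and of which 49.4% to 50.1% per sample are not whole, and RPKM values scaled by transcript length and reads. Here both were summed over transcripts with the same gene name. Rounded counts were analysed with edgeR 4.0.16 (R 4.3.3; TMM factors 0.989 to 1.01, filterByExpr, quasi-likelihood test) for all 6 samples with 1 coefficient per condition and no replicate block, and the contrast was 1 µM minus 25 nM RA. The methods name a likelihood ratio test of transcripts against DMSO, which was an alternative, as were DESeq2 1.42.0, other normalizations, filters and samples, and loess offsets (span 0.3) in length and GC content. Duplicates differed by more than sampling noise (mean chi-square per gene 3.66 to 5.59). With 2 samples per dose no permutation test can reach a small p and none was made. The tests were tried on simulated data. Other steps used Python 3.11.15, pandas 2.3.3, numpy 2.4.6, scipy 1.17.1 and matplotlib 3.10.9.

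Genes and lists were chosen with earlier results of these data known. Named genes were the 10 with the smallest p in each direction, among genes that passed a filter. The filter kept genes whose doses did not overlap and whose mean RPKM was above 1 at the dose where the gene was higher. Also named were the 10 graded and 10 near-equal responders with the smallest p of response. Members of the gene lists were named as examples, and a few genes were always named. Some genes are not reported here. Other genes were named after their values were seen. Positions and promoter sequences are from the files and RefSeq on mm10.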

Additional observations from a re-analysis of the deposited data

Results flagged for a closer look

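*Rprl2*, a small RNA of the RNase P family, lay on opposite sides of DMSO at the 2 doses. It had 80.9 and 72.6 RPKM with DMSO, 91.1 and 118 RPKM at 25 nM RA and 47.2 and 68.6 RPKM at 1 µM RA, so that both samples at 25 nM RA were above and both at 1 µM RA below the DMSO samples. The doses differed by a log2 value of -0.863 (SE 0.128, adjusted p = 0.00259 by edgeR's quasi-likelihood test), and both doses were called against DMSO (0.45 with adjusted p = 0.0406 at 25 nM RA, -0.42 with adjusted p = 0.0434 at 1 µM RA). Reads of such a short transcript can be shared with near-identical copies, so the value is uncertain. In depth-scaled counts, 33 of the 336 called genes had both samples of one dose above and both of the other below the DMSO samples. The share with this pattern over all genes tested was not counted. The doses of every called gene were already without overlap in RPKM, so this count alone sets no class of genes apart. Of the 33, 23 were higher at 25 nM RA, as were 259 of all 336 genes called between the doses. *Rprl2* was the 1 of the 33 also called at both doses against DMSO.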

How the results depend on the processing

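The number of genes called between the doses depended on the setting more than the graded class did. Against 336 calls (77 higher and 259 lower at 1 µM RA), there were 516 (120 and 396) by edgeR's likelihood ratio test, 158 (39 and 119) by DESeq2, 684 (167 and 517) with no filter on low counts, 212 (45 and 167) with only the 4 RA-treated samples, 192 (43 and 149) at an adjusted p under 0.05 and 2 (2 and 0) for transcripts tested one by one; at the transcript level, 0 lower calls were made by the quasi-likelihood test. A length offset gave 159 higher and 167 lower genes, a GC offset 135 higher, and the length and GC offset, chosen after seeing the data, 222 (119 and 103). The cause of these shifts was not tested.

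The replicate numbers did not pair the samples (correlations of same-numbered deviations -0.106, 0.106 and -0.139). The replicate block gave 311 calls (67 and 244), with the length offset 149 lower genes, and 1 of the 6 graded lowered genes lost its call. Crossed numbers gave 763 calls (255 and 508). Leaving out a sample gave 124 to 607 calls (27 to 273 higher, 90 to 334 lower), with 607 without replicate 2 of 1 µM RA, 124 and 138 without replicate 1 and 2 of 25 nM RA, and 216 and 218 without replicate 1 and 2 of DMSO. A dose left with 1 sample was assumed to vary like the other groups.

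Responders numbered 166 with a log2 change beyond 0.6 and 291 with no RPKM threshold. With no RPKM threshold 39 were graded and 222 undecided. Beyond 0.6, 60 were near equal and 72 undecided, and 2 (*Ndufs5* and *Hist1h4m*, named after their values were seen) were nearer to DMSO at 1 µM RA. The same number was found with responders called at 25 nM RA only. Near equal within 0.5 gave 49 near-equal and 17 undecided genes. Without a sample, 14 to 22 were graded, 19 to 28 near equal, 44 to 61 undecided, 0 to 1 in reverse order and 89 to 103 responders in all. The correlation with length was -0.0229 and -0.186 for the extreme single-sample pairs.

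Of 570 values of named genes under alternatives, 544 kept direction and call, 1 lost and 16 gained the call, and 9 small values turned sign. Without 1 sample at a time *Wnt8a* ranged from -0.012 to 0.089, *Sox2* from -0.017 to 0.171, *Nkx1-2* from -0.101 to 0.024, *Crabp2* from -0.061 to 0.0074, *Hoxb1* from -0.016 to 0.136 and *Fgf8* from -0.124 to 0.027, and *Fgf8* was 0.066 with a GC offset and 0.020 with the length and GC offset. DESeq2 and the 4-sample fit were not run for the classes.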

Other observations

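Some genes of glycolysis and of the response to low oxygen were called higher at 1 µM than at 25 nM RA. The list of 33 genes was drawn up after the values of called genes were seen, so its count is a description and no test of it was made. Of the 33, 7 were called higher and none was called lower by edgeR's quasi-likelihood test. The median log2 difference was 0.09 against 0.000335 over all genes tested. The likelihood ratio test called 9 higher and DESeq2 called 5 higher, and neither called any lower. At an unadjusted p under 0.05 in the quasi-likelihood test there were 13 higher and 1 lower. With the length and GC offset 10 were called higher and none lower. Over all genes tested 0.508% were called higher, or 0.786% with the offset. Of the 33 genes 8 had a difference below 0, and the summed RPKM of the list overlapped between the doses, at 4266 to 4347 with 25 nM RA and 4273 to 4806 with 1 µM RA. *Bnip3*, a mitochondrial protein of the hypoxia response, had 12.4 and 15.1 RPKM at 25 nM RA and 19.0 and 20.3 RPKM at 1 µM RA, against 11.2 and 12.3 RPKM with DMSO (log2 difference 0.50, adjusted p = 0.00320). *Pgk1*, a glycolytic kinase, had 278 and 288 RPKM at 25 nM RA and 326 and 359 RPKM at 1 µM RA, against 268 and 287 RPKM with DMSO (0.27, adjusted p = 0.00965). *Slc2a3*, a glucose transporter, had 48.6 and 47.8 RPKM and 55.8 and 55.2 RPKM (0.20, adjusted p = 0.0191). The others called were *Bnip3l*, *Pdk1*, *Pfkfb3* and *Tpi1*, with log2 differences between 0.19 and 0.21.

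A list of 51 chromatin regulators was also drawn up after the values of called genes were seen. By the quasi-likelihood test 17 were called lower at 1 µM RA and none was called higher, with a median of -0.11. The likelihood ratio test called 19 lower and 1 higher, and DESeq2 called 13 lower and none higher. At an unadjusted p under 0.05 in the quasi-likelihood test there were 27 lower and 1 higher. Over all genes tested 1.71% were called lower, and 4.89% in the bin of longest transcripts. With the length and GC offset 10 of the list were called lower and 1 higher, with a median of -0.04, against 0.680% called lower over all genes. The median transcript of this list is 7507 bases long, against 2816 over all genes tested. *Kmt2d* (-0.53), *Kmt2a* (-0.33) and *Arid1a* (-0.36), a pair of histone methyltransferases and a subunit of a remodelling complex, were called lower and kept with the offset at -0.31, -0.20 and -0.23.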
